A study of Mus musculus with 2 samples.

Results

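The 10 genes followed here belong to the smooth muscle contractile programme and were measured across the cell types of the mouse aorta: Acta2, Myh11, Tagln, Cnn1, Myl9, Lmod1, Mylk, Smtn, Myocd and Des. They were chosen by name, and all 10 were found among the 33696 gene features of both count matrices. The study examined KIF13B, a motor protein of the kinesin family, in atherosclerosis. It deposited 1 single-cell library of aorta from a wild-type (WT) group and 1 from a group titled Kif13b-/-, whose genotype label reads Kif13b knock down. Kif13b-/- is used here for that library, although its genotype label differs from its title. Strain, age, sex, diet, the allele that was used and whether animals were pooled are not given in the sources used here, and no cell carried a lineage label. With 1 library for each genotype no test between genotypes was possible, so ratios are given with 95% intervals that cover counting error only.

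Smooth muscle cells shorten when calcium-bound calmodulin activates myosin light chain kinase, which phosphorylates the regulatory light chain and lets smooth muscle myosin pull on actin filaments. Most genes of this apparatus are switched on together by serum response factor (SRF), which binds CArG boxes in DNA, and by its cofactor myocardin, the product of Myocd. Medial smooth muscle cells of an atherosclerotic artery are known to lose this programme while they take on a matrix-producing state, and some acquire cartilage-like features. Among the 10 genes, Acta2 encodes smooth muscle actin, Myh11 the smooth muscle myosin heavy chain, Myl9 the regulatory light chain and Mylk the kinase that phosphorylates it. Tagln encodes transgelin (SM22), Cnn1 calponin and Smtn smoothelin, which bind actin filaments. Lmod1 encodes leiomodin, which nucleates actin filaments, and Des encodes desmin, a muscle intermediate filament protein.

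CArG boxes are the element through which SRF and myocardin act, so the RefSeq promoter windows (GRCm38.p6) were searched for them. A window ran from 250 bases before to 50 bases after the start used for that window, and 7 of the 10 genes had one (Acta2, Cnn1, Myl9, Lmod1, Mylk, Smtn and Des). This start can differ from the end of the gene span given further below. The Mylk window (chr16:34784700-34784999) and the Smtn window (chr11:3539243-3539542) lie wholly inside those spans. Both Acta2 boxes also lie inside the Acta2 span, although before the start used here. A box is 10 bases long, with a 6-base core of A or T between a pair of C and a pair of G. The pattern reads the same on both strands, and boxes were searched exactly and with at most 1 core base that is not A or T. The boxes found are shown 5′ to 3′ on the gene's strand in 30-base stretches, with the box in capitals. The first Myl9 box matched exactly, and the other 3 held 1 such core base.
Acta2, 84 bases before the start, chr19:34255438-34255467, minus strand: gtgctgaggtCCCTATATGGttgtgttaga
Acta2, 34 bases before the start, chr19:34255388-34255417, minus strand: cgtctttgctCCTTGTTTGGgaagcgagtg
Myl9, 161 bases before the start, chr2:156775293-156775322, plus strand: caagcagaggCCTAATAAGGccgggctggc
Myl9, 99 bases before the start, chr2:156775355-156775384, plus strand: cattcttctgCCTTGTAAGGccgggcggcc

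An exact box was therefore present for 1 of 7 genes with a window, against 1.63% of all 32851 promoter windows. A box with at most 1 such core base was present for 2 of 7, against 9.98% of all windows. Cnn1, Lmod1, Mylk, Smtn and Des had no match in this window. For Mylk and Smtn the window lay inside the gene span, and the upstream end of that span was not searched. Counted by gene, 488 of 27025 genes with a window (1.81%) had an exact box and 3050 (11.3%) a box with at most 1 such core base. Of the other contractile and thin filament genes with a window, 4 of 14 had an exact box (Cnn2, Myl6, Vcl and Actg1), as did 3 of 13 linkers (Ldb3, Fhl1 and Filip1l), 0 of 10 genes of kinase and phosphatase control and 1 of 17 regulators (Srf). A match is a sequence description, and binding was not measured here.

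In the GENCODE M21 annotation of GRCm38, the 10 genes lie on 6 chromosomes. Acta2 (ENSMUSG00000035783) is at chr19:34241090-34255590, Tagln (ENSMUSG00000032085) at chr9:45929619-45936058, Cnn1 (ENSMUSG00000001349) at chr9:22099216-22109630 and Myl9 (ENSMUSG00000067818) at chr2:156775420-156781658. Myh11 (ENSMUSG00000018830) and Mylk (ENSMUSG00000022836) share chromosome 16, at chr16:14194535-14291372 and chr16:34745210-35002420. Smtn (ENSMUSG00000020439) and Myocd (ENSMUSG00000020542) share chromosome 11, at chr11:3517523-3540612 and chr11:65176561-65269989. Lmod1 (ENSMUSG00000048096) and Des (ENSMUSG00000026208) share chromosome 1, at chr1:135324807-135368065 and chr1:75360329-75368579. Tagln, Lmod1, Mylk, Smtn and Des overlap genes annotated on the opposite strand, Tagln among them with Pcsk7. Strand use in the counting is not stated in these sources, and how reads of such a pair were assigned was not checked for these 5 genes.

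After quality and doublet filters 16686 WT and 6887 Kif13b-/- barcodes remained, with a median of 2385 and 5760 UMIs (unique molecular identifiers, each a counted RNA molecule) per barcode. The libraries shared 52 cell barcodes, 38 of them among those analysed. UMIs of Kif13b were present in both libraries, at 70.5 (interval 68.7 to 72.4) counts per 1000000 UMIs (CPM) in WT and 43.8 (42.1 to 45.5) in Kif13b-/-. A 3′ tag outside a deleted part of the gene does not check the genotype, and the position of the alteration is unknown from these sources. Barcodes were clustered without the 10 genes and named from markers that hold none of them, although correlated genes of the same programme did enter the clustering.

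The results rest on 5 groups of barcodes, and unnamed clusters other than cluster 18 are outside them. Among these, cluster 9 (1375 WT and 464 Kif13b-/- barcodes) had 3 of 12 smooth muscle markers raised. It was at 15542 and 18476 CPM of the 10 genes summed. Cluster 15 was nearly confined to 1 library, with 6 WT and 1296 Kif13b-/- barcodes. It made up 18.8% of the Kif13b-/- library, at 8545.5 CPM of the 10 genes and a median of 15.3% mitochondrial UMIs there. The smooth muscle-like class (1599 WT and 601 Kif13b-/- barcodes) joined clusters 13 and 14, in which 11 and 10 of 12 smooth muscle markers were raised. Cluster 18 (661 and 342 barcodes) had Cxcl5, Sfrp2 and Abi3bp among its leading genes and had 0 of 12 smooth muscle and 4 of 10 modulated smooth muscle markers raised, so it stays unnamed and is placed here as an intermediate. The Crabp2 Cst6 Grem1 stromal class (544 and 334 barcodes) had all 3 of its own markers and 6 of 10 modulated markers raised. The chondrocyte-like class (1321 and 144 barcodes) joined cluster 29, with 10 of 10 cartilage markers, and the shallow cluster 8, with 9 of 10. The shallow cluster 7 (1352 and 151 barcodes), led by Col10a1, Mmp13 and Alpl, had 6 of 10 cartilage markers raised. It stayed unnamed and is not in that class, so statements on chondrocyte-like barcodes do not cover it. Immune-like classes were pooled (2988 and 1578 barcodes). The pool holds named classes only. It leaves out the unnamed cluster 2 (822 and 185 barcodes), with 6 of 9 macrophage markers raised, and cluster 4 (621 and 199 barcodes), led by Ccr7, Htr7 and Cytip.

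The summed level of the 12 smooth muscle markers, none of them among the 10 genes, was 5400 CPM in the WT and 5173 CPM in the Kif13b-/- smooth muscle-like class. It was 1313 and 1484 CPM in cluster 18, 400 and 307 CPM in the Crabp2 class and 402 and 272 CPM in the chondrocyte-like class. Modulated markers were at 2825 and 3775 CPM in smooth muscle-like barcodes, 30659 and 29672 CPM in cluster 18, 66311 and 71750 CPM in the Crabp2 class and 50368 and 64604 CPM in the chondrocyte-like class. Immune-like barcodes of at least 5000 UMIs also held 18071 and 19402 CPM of them, so these markers are not particular to stromal cells. Fibroblast markers were at 617 and 535 CPM, 13694 and 11939 CPM, 20302 and 23339 CPM, and 19785 and 17972 CPM in the same 4 groups. The order of the groups rests on smooth muscle markers down to the Crabp2 class and on cartilage markers beyond it, since modulated and fibroblast markers were lower again in the chondrocyte-like class, and whether these barcodes derive from smooth muscle cells was not tested.

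Actin and transgelin RNA made up most of the programme in smooth muscle-like barcodes. Summed over the 10 genes the level was 39197 CPM in WT and 36899 CPM in Kif13b-/-. Acta2 was highest, at 13392 CPM in WT and 13219 CPM in Kif13b-/-, followed by Tagln at 13208 and 11789 CPM. Acta2 and Tagln together held about the same large share in both libraries, 34.2% and 33.7% of the summed UMIs in WT and 35.8% and 32.0% in Kif13b-/-. These are counts of 3′ tags, and levels of different genes are set side by side on that scale only. Whether intronic reads were counted is not given, and a dependence of the counts on gene length was not checked.

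The motor and its control came next. Myh11 was at 4493 CPM in WT and 3949 CPM in Kif13b-/-, Myl9 at 3257 and 3280 CPM, and Mylk, the kinase acting on the light chain, at 1782 and 1436 CPM. Cnn1 followed at 916 and 975 CPM, Lmod1 at 815 and 763 CPM and Smtn at 689 and 697 CPM. Myocd, the regulator, was at 401 and 472 CPM and Des was lowest at 244 and 320 CPM. The order was the same in both libraries, and no neighbours in it had overlapping counting intervals; the closest were WT Acta2 (13323 to 13461 CPM) and Tagln (13140 to 13277 CPM). No spread between animals is known for this order.

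Des and Mylk set the smooth muscle-like clusters 13 and 14 apart. Cluster 13 was led by Hpse2, Sorbs2, Pln and Timp4, and cluster 14 by Sost, Mylk4, Tcap and Itga8. Des was at 376 CPM in cluster 13 and 106 CPM in cluster 14 of the WT library, 3.56-fold lower in cluster 14, and at 583 and 183 CPM, 3.19-fold lower, in Kif13b-/-. Mylk was 1.83-fold and 1.80-fold lower in cluster 14, Myl9 1.68-fold and 1.58-fold, and Myh11 1.58-fold and 1.51-fold. Acta2 differed less, with 14401 against 12333 CPM in WT and 14480 against 12562 CPM in Kif13b-/-. Myocd went the other way: it was at 353 CPM in cluster 13 and 451 CPM in cluster 14 in WT, and at 369 and 525 CPM in Kif13b-/-. The cluster with more Myocd RNA was thus the one with less Des, Mylk, Myl9 and Myh11 RNA, in both libraries. Since both clusters were formed on genes of the same cells, this contrast is a description.

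To compare single barcodes across depths, barcodes with at least 5000 UMIs were thinned to 5000, a step chosen after the data had been seen. It kept 1127 WT and 534 Kif13b-/- smooth muscle-like barcodes, 552 and 292 of cluster 18, 435 and 282 of the Crabp2 class, 597 and 89 of the chondrocyte-like class and 945 and 669 immune-like barcodes. The median number of UMIs of the 10 genes per barcode was 194 in WT and 179 in Kif13b-/- smooth muscle-like barcodes, where the middle 50% ran from 151 to 251.5 and from 145 to 220. It was 26 and 29 in cluster 18, 5 and 4 in the Crabp2 class and 2 and 1 in the chondrocyte-like class. Immune-like barcodes had a median of 1 and 0. The typical barcode of the Crabp2 class thus held little of the programme, and the median chondrocyte-like barcode nearly as little of it as an immune-like one. No UMI of the 10 genes was seen in 21.9% and 24.7% of chondrocyte-like barcodes, against 42.9% and 50.1% of immune-like ones.

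**Figure D1:**
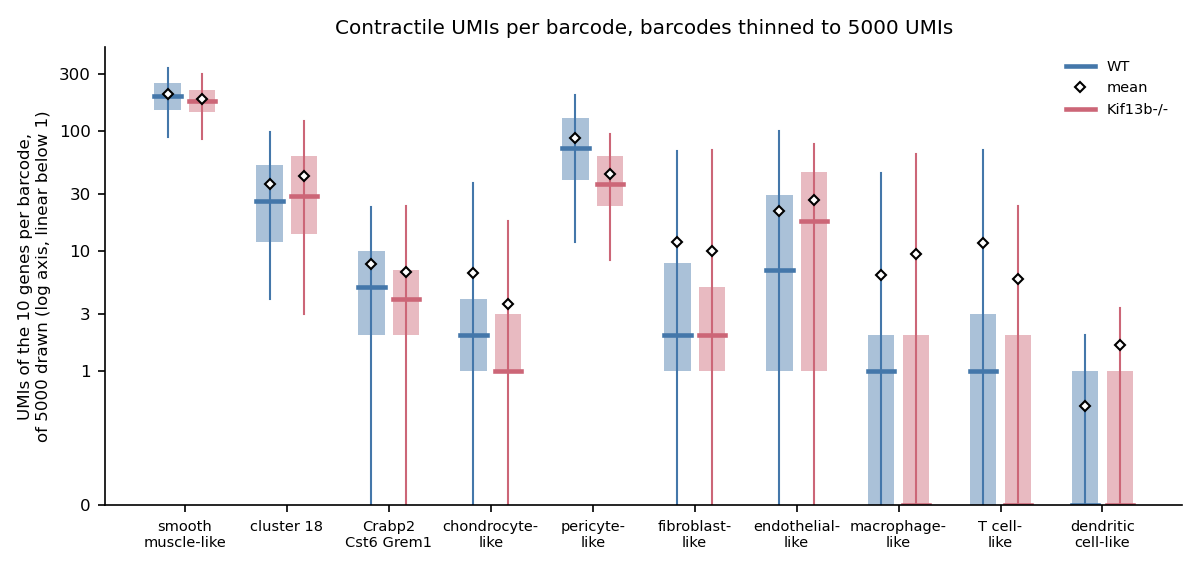
UMIs of the 10 genes per barcode after thinning to 5000 UMIs, by group of barcodes and library, on an axis that is logarithmic above 1 and linear below it. Boxes span the middle 50% of barcodes, whiskers the 5th to 95th percentile, the thick line is the median and the diamond the mean; medians fall from 194 and 179 in smooth muscle-like barcodes to 26 and 29 in cluster 18 and 2 and 1 in chondrocyte-like barcodes, and the means of immune-like barcodes (6.29 and 8.93) lie well above their medians.

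All 10 genes were lower in each of the 3 later groups than in smooth muscle-like barcodes of the same library, by amounts that differed widely between genes. In cluster 18 of the WT library 8 of 10 were at least 4-fold lower, beside 2.48% of all genes with at least 20 UMIs; in Kif13b-/- 6 of 10 were, beside 1.99%. In the Crabp2 class the counts were 9 of 10 in WT (background 5.32%) and 10 of 10 in Kif13b-/- (5.83%). In the chondrocyte-like class all 10 passed in both libraries (7.55% and 9.28%). The median log2 ratio of the 10 genes was -2.48 and -2.13 in cluster 18, where the median of all genes was 0.05 and 0.03. It was -4.61 and -5.03 in the Crabp2 class (0.01 and 0.00 for all genes) and -4.72 and -6.36 in the chondrocyte-like class (-0.27 and -0.38). The clusters were formed without the 10 genes but with genes that vary with them, so these counts describe the groups and test nothing.

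Des differed most in cluster 18. It was at 14.7 CPM in WT and 16.2 CPM in Kif13b-/- in cluster 18, 16.5-fold and 19.7-fold lower than in smooth muscle-like barcodes. After thinning, 34.1% of WT and 40.1% of Kif13b-/- smooth muscle-like barcodes had a Des UMI, against 4.71% and 5.82% in cluster 18. Its share in immune-like barcodes was 2.65% and 5.83%, with intervals that overlap those of cluster 18 in both libraries, so Des in cluster 18 could not be told apart from that background by this measure.

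The myosin genes came next. Myh11 was at 483 CPM in WT and 636 CPM in Kif13b-/- in cluster 18, 9.29-fold and 6.20-fold lower. It was at 76.7 and 63.8 CPM in the Crabp2 class, 58.6-fold and 61.8-fold lower, among the largest differences there. Myl9 followed closely, 8.72-fold and 6.16-fold lower in cluster 18 and 49.3-fold and 45.4-fold lower in the Crabp2 class. Mylk was 5.89-fold and 4.23-fold lower in cluster 18 and 21.2-fold and 21.9-fold lower in the Crabp2 class, a smaller difference there than for the myosin chains. Myh11 UMIs were seen in 72.6% and 78.8% of thinned cluster 18 barcodes but in 20.2% and 17.7% of the Crabp2 class, close to the 16.6% and 19.7% of immune-like barcodes.

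The actin filament genes kept an intermediate level. Acta2 was at 2526 CPM in WT and 2904 CPM in Kif13b-/- in cluster 18, 5.30-fold and 4.55-fold lower, and at 629 and 542 CPM in the Crabp2 class, 21.3-fold and 24.4-fold lower. After thinning it was seen in 94.4% and 95.2% of cluster 18 barcodes and still in 74.5% and 68.1% of the Crabp2 class, against 31.8% and 34.8% of immune-like barcodes. Tagln was 5.86-fold and 5.02-fold lower in cluster 18 and, at 472 and 268 CPM, lower still in the Crabp2 class. Cnn1 was 4.93-fold and 3.77-fold lower in cluster 18 but 60.3-fold and 65.2-fold lower in the Crabp2 class, where 4.83% and 8.51% of thinned barcodes had a UMI, no more than the 8.57% and 12.0% of immune-like barcodes. Lmod1 was 4.67-fold and 3.89-fold lower in cluster 18 and 16.3-fold and 20.9-fold lower in the Crabp2 class. Cnn1 was thus among the 4 genes with the smallest difference in cluster 18 and had the largest in the Crabp2 class, while actin RNA was above the immune-like share there. Endothelial-like barcodes had Acta2 in 67.6% and 70.9% of thinned barcodes, so the Crabp2 share is above the immune-like but not clearly above the endothelial-like one. Acta2 was in 50.3% and 53.5% of fibroblast-like barcodes, 53.1% and 88.2% of Schwann or glial-like ones and 38.3% and 26.7% of the endothelial-like cluster 34.

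Myocd, the regulator, was lower by less than any of the other 9 genes in cluster 18 and the Crabp2 class. It was at 259 CPM in WT and 271 CPM in Kif13b-/- in cluster 18, 1.55-fold and 1.74-fold lower than in smooth muscle-like barcodes. In the Crabp2 class it was at 109 and 73.4 CPM, 3.69-fold and 6.42-fold lower. The share of thinned barcodes with a Myocd UMI was 76.0% and 80.7% in the smooth muscle-like class, 55.4% and 60.3% in cluster 18 and 33.3% (interval 28.9 to 38.0) and 21.6% (17.0 to 26.9) in the Crabp2 class. Immune-like barcodes had 8.04% (6.39 to 9.96) and 8.07% (6.12 to 10.4). Myocd RNA was therefore above the immune-like share in the Crabp2 class, where Cnn1, Myh11 and Des RNA was near or at it. In endothelial-like barcodes Myocd was seen in 53 of 204 WT (interval 20.1% to 32.6%) and 43 of 182 Kif13b-/- barcodes (17.7% to 30.5%), and these intervals overlap those of the Crabp2 class. Cluster 34 of the endothelial-like barcodes had 1.67% (0.042 to 8.94) and 0% (0 to 11.6), below the Crabp2 class in both libraries. Fibroblast-like barcodes had 16.2% (11.2 to 22.3) and 13.5% (8.77 to 19.6), below the Crabp2 class in WT but overlapping it in Kif13b-/-. Intervals of Schwann or glial-like barcodes (11.5 to 43.4 and 10.8 to 41.2) and of WT adipocyte-like ones (9.76 to 29.6) overlapped too. The reading thus depends on the comparator. In the Crabp2 class Myocd made up 6.84% and 6.02% of the UMIs of the 10 genes, against 1.02% and 1.28% in smooth muscle-like barcodes. The proportion of Smtn was raised there too. Smtn was at 11.2% and 11.1% of its smooth muscle-like level, where the median of the 10 genes was 4.14% and 3.19%. In the chondrocyte-like class Myocd was at 37.6 and 17.4 CPM and in 12.6% (10.0 to 15.5) and 7.87% (3.22 to 15.5) of thinned barcodes, near the immune-like share.

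Smtn was the exception in chondrocyte-like barcodes. After Myocd it had the smallest difference in cluster 18, at 191 CPM in WT and 222 CPM in Kif13b-/-, and it was at 135 and 134 CPM in the chondrocyte-like class, above its 77.3 and 77.4 CPM in the Crabp2 class. That was 5.12-fold and 5.18-fold below smooth muscle-like barcodes, where the other 9 genes were 10.7-fold to 32.7-fold lower in WT and 26.8-fold to 127-fold lower in Kif13b-/-. The 127-fold end was Des, at 2.28 CPM, near the 1.37 CPM that 3 UMIs make in that Kif13b-/- group. Smtn UMIs were in 41.7% (37.7 to 45.8) and 46.1% (35.4 to 57.0) of thinned chondrocyte-like barcodes, against 10.1% (8.21 to 12.2) and 11.7% (9.33 to 14.3) of immune-like ones. Fibroblast-like barcodes had 34.6% and 32.9%, endothelial-like ones 37.8% and 42.9%, and Schwann or glial-like ones 43.8% and 55.9%. The chondrocyte-like share was above the fibroblast-like and endothelial-like ones, with overlapping intervals, and below the glial-like one. By comparison Acta2, a far more abundant RNA in smooth muscle, was in 37.5% and 33.7% of chondrocyte-like, 31.8% and 34.8% of immune-like and 50.3% and 53.5% of fibroblast-like barcodes. Smtn made up 8.93% and 22.8% of the UMIs of the 10 genes in that class, against 1.76% and 1.89% in smooth muscle-like barcodes. Smtn overlaps genes on the opposite strand, and how reads of such a pair were assigned was not checked.

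**Figure D2:**
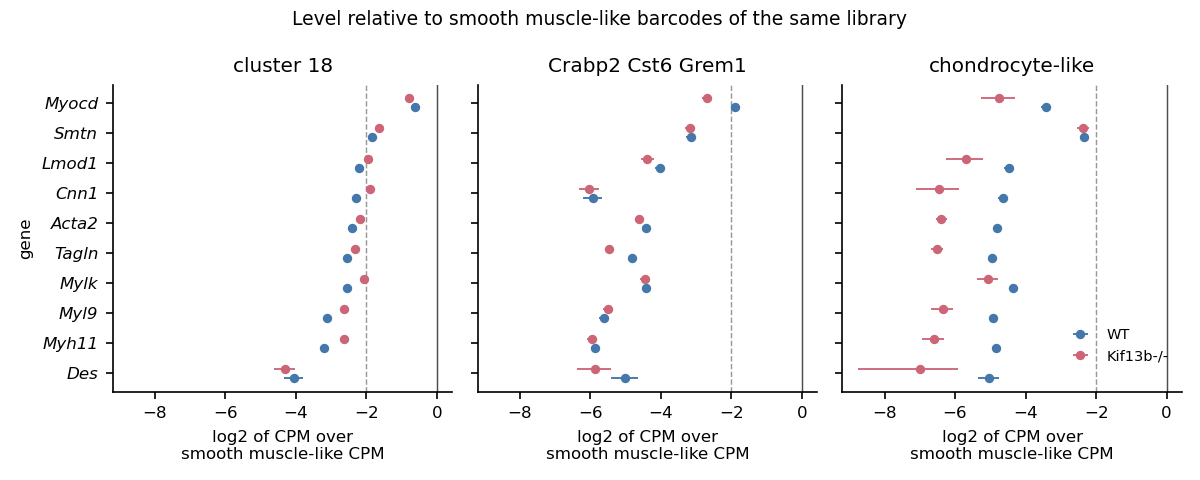
Level of each gene in cluster 18, the Crabp2 Cst6 Grem1 stromal class and the chondrocyte-like class relative to smooth muscle-like barcodes of the same library (log2 of the CPM ratio, with 95% counting intervals); the dashed line marks a 4-fold lower level. Myocd lies nearest to 0 in cluster 18 (1.55-fold and 1.74-fold lower) and Des farthest (16.5-fold and 19.7-fold), whereas Smtn stands apart in the chondrocyte-like class (5.12-fold and 5.18-fold).

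**Figure D3:**
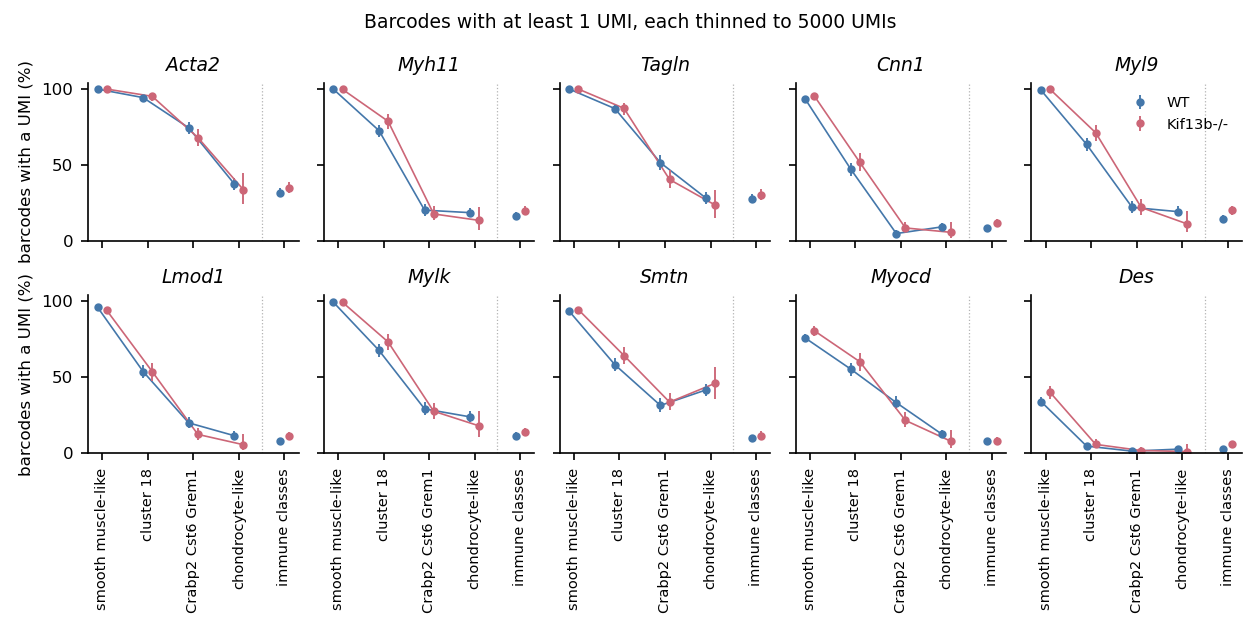
Percent of barcodes with at least 1 UMI of each gene after thinning to 5000 UMIs, by group of barcodes and library, with Clopper-Pearson 95% intervals. Acta2 declines from 100% in smooth muscle-like barcodes to 37.5% and 33.7% in chondrocyte-like ones, near its immune-like share, whereas Smtn remains at 41.7% and 46.1% there against 10.1% and 11.7% in immune-like barcodes.

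In these droplet libraries the 10 genes were also counted in cells that should not express them. In the pooled immune-like classes Acta2 was at 898 CPM in WT and 924 CPM in Kif13b-/-, Tagln at 797 and 679 CPM, Myh11 at 257 and 225 CPM and Myl9 at 190 and 220 CPM. Mylk was at 106 and 83.2 CPM, Cnn1 at 65.2 and 71.9 CPM, Smtn at 57.4 and 53.5 CPM, Lmod1 at 49.9 and 44.8 CPM and Myocd at 46.7 and 40.8 CPM. Des was at 8.18% and 6.22% of its smooth muscle-like level. The order nearly repeats that of smooth muscle-like barcodes. As a percent of the smooth muscle-like level, the genes ran from 5.73% (Myh11) to 11.7% (Myocd) in WT and from 5.70% (Myh11) to 8.65% (Myocd) in Kif13b-/-. With the level of each gene set against 10% of its smooth muscle-like level, 9 of 10 were at or under it in WT (all but Myocd) and 10 of 10 in Kif13b-/-. Summed over the 10 genes the pool was at 2487 CPM in WT and 2362 CPM in Kif13b-/-. The shallow clusters 2 and 4, outside the pool, were higher, at 8064 and 8426 CPM in WT and 4226 and 6379 CPM in Kif13b-/-. The percents of the pool thus do not cover them.

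The genes kept a more even ratio to their smooth muscle-like levels in the immune pool than in cluster 18, the Crabp2 class and the chondrocyte-like class. The highest of these percents was 2.04 times the lowest in WT and 1.52 times in Kif13b-/- immune-like barcodes. In endothelial-like barcodes it was 1.76 and 2.24 times, from 14.3% to 25.2% in WT and 10.9% to 24.4% in Kif13b-/-. Fibroblast-like barcodes were similar, at 2.21 and 2.58 times. Single immune-like classes with few UMIs of these genes were less even, with 3.66 and 4.70 times in dendritic cell-like and 2.67 and 7.46 times in neutrophil-like barcodes, and 3.16 and 1.99 times in B cell-like ones. It was 10.7 and 11.4 times in cluster 18, 16.4 and 10.2 times in the Crabp2 class and 6.43 and 27.0 times in the chondrocyte-like class. Acta2 and Tagln made up 36.1% and 32.1% of the UMIs of the 10 genes in the WT immune pool and 39.1% and 28.7% in Kif13b-/-, close to their smooth muscle-like shares. Myocd stood somewhat above the common ratio, with 1.88% and 1.73% of those UMIs against 1.02% and 1.28% in smooth muscle-like barcodes.

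In deep immune-like barcodes most UMIs of the 10 genes sat in a minority. After thinning to 5000 UMIs, 42.9% of WT and 50.1% of Kif13b-/- immune-like barcodes held no UMI of the 10 genes, while 7.41% and 13.5% held 20 or more. The 5% of barcodes with the most held 69.6% and 51.8% of these UMIs. In the whole immune pool 84.7% and 83.1% of barcodes held a UMI of the 10 genes, the median was 3 UMIs in both libraries, and the 5% with the most held 45.6% and 48.1%. Dendritic cell-like barcodes had a mean of 0.742 and 1.66 UMIs of the 10 genes per barcode and a median of 0 in both libraries. By depth, the summed level in WT immune-like barcodes was 8496 CPM below 1000 UMIs, 7846 CPM from 1000 to below 2000, 4158 CPM from 2000 to below 5000, 888 CPM from 5000 to below 10000, 1725 CPM from 10000 to below 20000 and 1137 CPM above that. In Kif13b-/- it was 6161, 7508, 6615, 2833, 872 and 1547 CPM at the same depths. Immune-like barcodes below 2000 UMIs thus had a larger part of their RNA from these genes than those above 5000, although the level did not go down at every step. Among barcodes with at least 5000 UMIs the percents of the smooth muscle-like level fell to 2.69% to 6.07% in WT and 3.62% to 5.76% in Kif13b-/-. Whether these UMIs came from free RNA, from 2 cells in a droplet or from taken-up material was not tested.

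**Figure D4:**
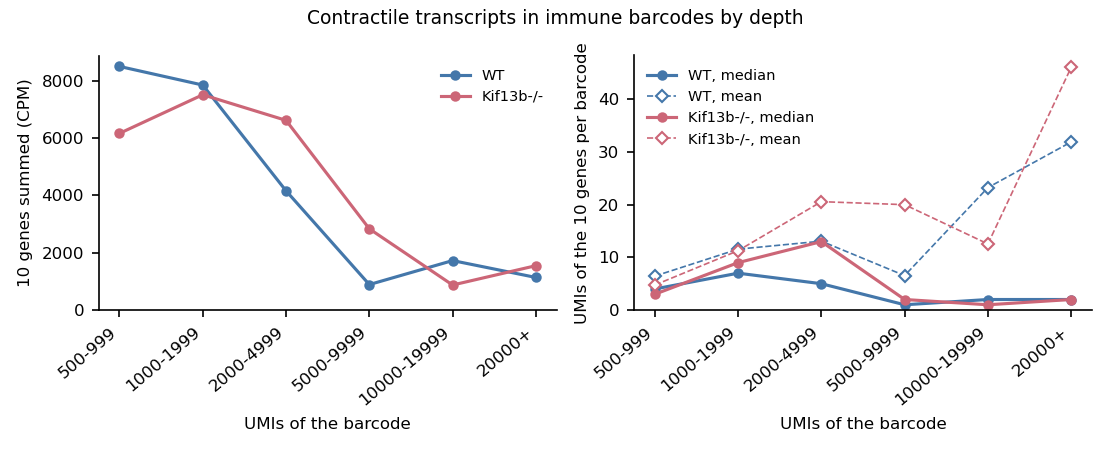
Summed level of the 10 genes in immune-like barcodes by total UMIs of the barcode: CPM, and the mean and median UMIs of these genes per barcode. WT goes from 8496 CPM in the shallowest barcodes to 888 CPM from 5000 to below 10000 UMIs and is at 1725 CPM in the next bin, and medians per barcode stay at or under 13 UMIs at every depth while means reach 46.1.

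Pericyte-like barcodes (83 WT and 67 Kif13b-/-), the other mural cells of the vessel wall, carried the programme in different proportions. Acta2 was at 5028 CPM in WT and 3079 CPM in Kif13b-/- and Mylk at 1401 and 759 CPM, 78.6% and 52.9% of the smooth muscle-like level. Des was at 163 and 165 CPM. Smtn, by contrast, was at 80.4 and 65.6 CPM, only 11.7% and 9.41% of the smooth muscle-like level, and Myocd at 115 and 58.1 CPM. Mylk was thus the best kept and Smtn the least kept of the 10 in pericyte-like barcodes of both libraries, which is not the order seen in cluster 18.

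Between genotypes the programme as a whole was nearly level in smooth muscle-like barcodes. None of the 10 genes was 1.5-fold or more higher in Kif13b-/- (background 5.82% of all genes with at least 20 UMIs), and none 1.5-fold or more lower (4.5%). The log2 ratio of Kif13b-/- over WT was -0.02 for Acta2, 0.01 for Myl9, 0.02 for Smtn, 0.09 for Cnn1 and -0.09 for Lmod1. It was -0.16 for Tagln and -0.19 for Myh11. Mylk had the lowest ratio at -0.31 (interval -0.35 to -0.28), Myocd was at 0.23 (0.17 to 0.30) and Des had the highest at 0.39 (0.31 to 0.47). The median was -0.004 for the 10 genes and 0.005 for all genes. These intervals hold no animal-to-animal spread, so they do not show that a ratio belongs to the genotype.

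Part of those differences moved with the makeup of the class. Cluster 13 held 54.7% of WT but 37.8% of Kif13b-/- smooth muscle-like barcodes, and it is the cluster with more Des and Mylk and less Myocd RNA. Within the clusters, the Mylk ratio shrank to a log2 of -0.17 in cluster 13 and -0.15 in cluster 14. Des went the other way: it was at 376 CPM in WT and 583 CPM in Kif13b-/- in cluster 13, a log2 ratio of 0.63 (0.53 to 0.73), and at 106 and 183 CPM in cluster 14, 0.79 (0.64 to 0.95). Des alone of the 10 genes was past 1.5-fold higher in either cluster (background 8.32% in cluster 13 and 6.19% in cluster 14), and none was past 1.5-fold lower (5.35% and 4.71%). With both clusters weighted equally Des was 1.64-fold higher in Kif13b-/-, against 1.31-fold in the pooled class. The share of thinned barcodes with a Des UMI was 47.8% in WT and 54.2% in Kif13b-/- in cluster 13, with overlapping intervals. It was 19.2% and 32.3% in cluster 14, where the intervals did not overlap. The desmin difference between these libraries was thus larger within either cluster than in the pooled class. Whether barcodes of a cluster are in a like state in both libraries was not tested, and looking at the clusters apart was chosen after the data had been seen.

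In cluster 18 every gene was slightly higher in Kif13b-/-, from a log2 of 0.06 for Myocd and for Tagln to 0.40 for Myh11, 0.48 for Cnn1 and 0.51 for Myl9. None passed 1.5-fold in either direction (background 5.71% higher and 4.88% lower). In the Crabp2 class only Tagln passed, at 472 CPM in WT and 268 CPM in Kif13b-/-, a log2 ratio of -0.82 (-0.90 to -0.74). With barcodes classed by marker score this ratio turned to 0.54, and at Leiden resolution 2 no gene was 1.5-fold lower. The background was 5.52% lower, and 5.18% higher where none of the 10 passed. Myocd was lower there too, at -0.56 (-0.73 to -0.41), and Acta2 at -0.21. Tagln UMIs were in 51.5% of WT and 40.4% of Kif13b-/- thinned barcodes of that class.

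**Figure D5:**
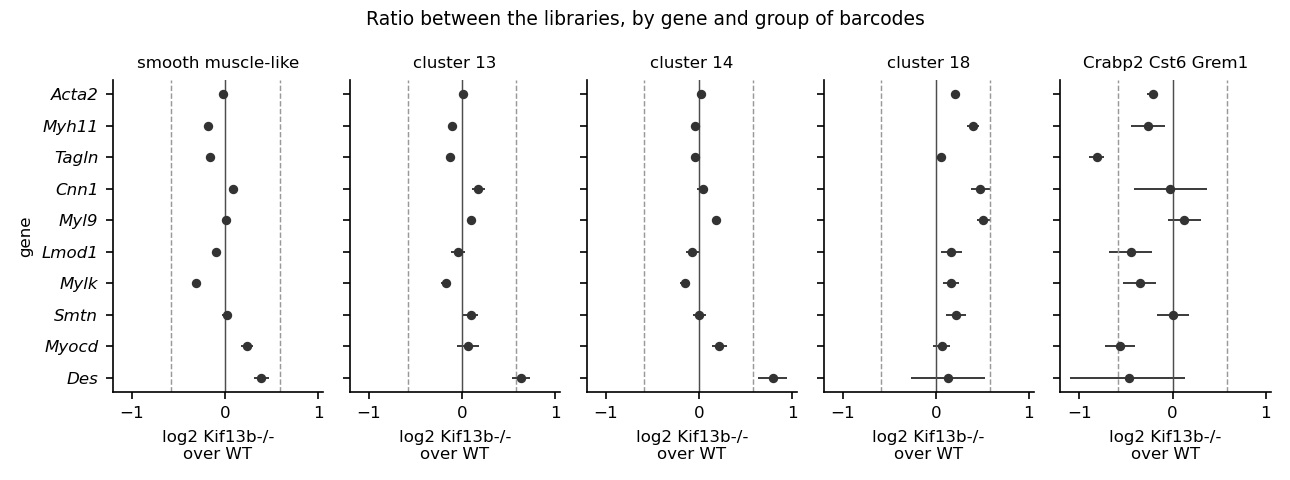
Log2 ratio of Kif13b-/- over WT for each gene in smooth muscle-like barcodes, clusters 13, 14 and 18 and the Crabp2 Cst6 Grem1 stromal class, with 95% counting intervals; dashed lines mark 1.5-fold. Points of smooth muscle-like barcodes lie within 1.5-fold, with Des highest (0.39) and Mylk lowest (-0.31), whereas Des passes the line in clusters 13 (0.63) and 14 (0.79) and Tagln in the Crabp2 class (-0.82).

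In the chondrocyte-like class the WT library had more of these RNAs. There 9 of the 10 genes were 1.5-fold or more lower in Kif13b-/-, beside a background of 12.4% of all genes, and none was 1.5-fold or more higher (9.81%). The count depends on how barcodes were classed and weighted: it was 0 by marker score, 2 with genes scaled within each library and 5 with barcodes thinned to 1000 UMIs. Acta2 was at 481 CPM in WT and 158 CPM in Kif13b-/-, Tagln at 424 and 129 CPM and Myh11 at 157 and 40.2 CPM. Of the 9 genes Myh11 had the lowest level relative to WT (0.258-fold) and Mylk the highest (0.498-fold), and Smtn was level at a log2 of -0.003. The UMIs behind them sat in few barcodes: the top 5% of barcodes held 44.9% of the UMIs of the 10 genes in WT and 28.7% in Kif13b-/-, and 45.6% and 44.8% after thinning to 5000 UMIs. The median per barcode was 6 and 5.5 UMIs before thinning. The shallow cluster 8 made up 512 of 1321 WT but 12 of 144 Kif13b-/- barcodes; in cluster 29 alone the 9 log2 ratios ran from -1.57 to -0.76 and Smtn was at 0.008. Cluster 7, outside the class, was at 9005 CPM of the 10 genes summed in WT and 7203 CPM in Kif13b-/-. The class itself was at 1508 and 590 CPM, so its level and gap rest on which clusters were named. Whether doublets or free RNA had a part in the gap of the chondrocyte-like class was not tested.

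The gap was not particular to chondrocyte-like barcodes. In fibroblast-like barcodes 7 of 10 genes were 1.5-fold or more lower in Kif13b-/- (background 9.47%) and none higher (7.03%), with a median log2 ratio of -0.80. That count became 0 at Leiden resolution 2, 0 without doublet removal and 0 by marker score. In pericyte-like barcodes 7 of 10 were lower too (14.9%) and none higher (13.3%), also with a median of -0.80, and this count became 0 by marker score. In endothelial-like barcodes Myocd alone was lower (8.72%) and Des alone higher (7.42%). Acta2 in fibroblast-like barcodes, for example, was at 1777 CPM in WT and 1028 CPM in Kif13b-/-.

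Other genes of contraction were counted by role, from lists chosen with earlier results of these data known; over all genes 5.82% were 1.5-fold or more higher and 4.5% lower in this comparison. Of 16 further contractile and thin filament genes none passed 1.5-fold between genotypes in smooth muscle-like barcodes; the median log2 ratio was 0.04, with Actb at -0.05 and Myl6 at -0.09. None of 16 linkers and scaffolds passed (median -0.04; Vim 0.14, Lpp -0.17), nor any of 13 genes of myosin light chain kinase and phosphatase control (median -0.11; Ppp1r12a -0.11, Prkg1 -0.07). Of 22 regulators 1 was lower and 1 higher, which is near the share over all genes. Notch3, a receptor of arterial smooth muscle and pericytes, was the lower one, at 208 CPM in WT and 126 CPM in Kif13b-/-, a log2 ratio of -0.73 (-0.84 to -0.61). Tcf21 was the higher one at 0.85, on 31 UMIs in all and with an interval of -0.25 to 1.99.

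The same lists were counted along the stages, beside 2.48%, 5.32% and 7.55% of all genes in WT and 1.99%, 5.83% and 9.28% in Kif13b-/-; differences between lists were not tested. At least 4-fold lower in the WT library were 4, 7 and 9 of 16 contractile genes in cluster 18, the Crabp2 class and the chondrocyte-like class in turn, and 6, 10 and 13 of 16 linkers. Of the 13 kinase and phosphatase genes 2, 5 and 5 were, and of the regulators 2 of 22, 2 of 21 and 4 of 22, with 2 higher in the chondrocyte-like class. In Kif13b-/- the counts were 2, 7 and 10 for contractile genes, 5, 11 and 11 for linkers 1, 5 and 5 for kinase and phosphatase genes, and 1 of 21, 4 of 22 and 3 of 21 for regulators, again with 2 higher in the last class. Srf and Klf4 are named here for their known roles, outside the naming rule and after their values were seen. Srf, the partner of myocardin, was at 16.2 CPM in WT and 21.8 CPM in Kif13b-/- smooth muscle-like barcodes. Klf4, a repressor of the contractile programme, was at 203 and 220 CPM there, 413 and 356 CPM in cluster 18, 381 and 342 CPM in the Crabp2 class and 698 and 764 CPM in the chondrocyte-like class. Klf4 RNA was thus higher in each of these 3 groups than in smooth muscle-like barcodes, by less than 4-fold. The 2 regulators past 4-fold higher in the chondrocyte-like class were Nfatc1 and Tgfb1 in both libraries. Nfatc1 was at 37.7 and 54.55 CPM in smooth muscle-like and 384.5 and 498.9 CPM in chondrocyte-like barcodes. Tgfb1 was at 35.93 and 43.25 CPM and at 163.7 and 215.4 CPM. No share of all genes was counted for that direction.

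The genes whose levels followed the mean of the 10 most closely over 31 clusters of at least 50 barcodes, by Pearson's r of log2(CPM + 1), were Tpm2 (0.990), Ppp1r14a (0.988), Myom1 (0.985), Sh3bgr (0.979), Kcnab1 (0.970), Ctnna3 (0.970), Adcy5 (0.970), Ldb3 (0.968), Nexn (0.967) and Stbd1 (0.967). Ppp1r14a was also a marker used to name the smooth muscle-like class. Myocd itself followed the mean of the 10 less closely, at 0.926, and Des at 0.911. The genes most like Myocd were Thsd4 (0.963), Rgs7bp (0.962), Jph2 (0.958), Kcnmb1 (0.958) and Cacnb2 (0.953), none of which is on the other list. Kcnmb1, like Ppp1r14a, was a marker used to name the smooth muscle-like class. The clusters share the same libraries and differ in depth, so these values describe and were not tested.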

How the data were processed

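Cells from mouse aorta were captured with the 10x 3′ v3.1 kit, per the labels' protocols. The authors deposited whole-number UMI counts per gene and barcode, made with Cell Ranger 8.0.1 per the file headers and with build mm10 per the submitters' processing notes. Annotation, strand and intron counting are not given in the sources used here.

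Filters of 500 or more UMIs, 300 or more genes and no more than 20% mitochondrial UMIs left 19832 WT and 7315 Kif13b-/- barcodes. The threshold of the doublet caller Scrublet, run through scanpy, marked 16 and 1 barcodes and so did not work; the barcodes with the highest scores, 15.9% and 5.85%, were removed instead, at 0.8% per 1000 barcodes. The rest held 81977313 and 59853601 UMIs. Clustering (scanpy 1.11.5, Python 3.11.15) used 2000 variable genes without the 10, 30 components, 15 neighbours and Leiden resolution 1, and gave 38 clusters; 13 classes were named from marker lists.

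CPM is summed UMIs per 1000000 UMIs of the group. Ratios used genes with at least 20 UMIs and a prior count of 0.5; intervals are exact Poisson, 2-count or Clopper-Pearson at 95% and cover counting error only. No p-value was computed, since cells are not replicates. Scripts were tested on simulated data. All 10 genes are named, together with listed genes past 1.5-fold in smooth muscle-like barcodes (otherwise the 2 with most UMIs) and the genes most alike among those with at least 200 UMIs. Srf and Klf4 were added after their values were seen, as were Nfatc1 and Tgfb1, the regulators past 4-fold higher in the chondrocyte-like class. The members and lists were chosen with earlier results of these data known.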

Additional observations from a re-analysis of the deposited data

How the results depend on the processing

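Of 312 counts recomputed under 19 settings (15 planned, 4 added after seeing the data), 270 stayed within 1.5 times. A setting that does not touch the groups of a count leaves it unchanged by construction. Cluster 13 or cluster 14 alone redefines only the smooth muscle-like group, so genotype counts of other classes cannot move with it. All 10 genes passed the minimum of UMIs, so that threshold could not move their counts. How many of the 270 were fixed in this way was not counted, so 270 does not measure robustness. The loss to the chondrocyte-like class stayed at 10 of 10 genes in both libraries, to the Crabp2 class at 9 to 10 in WT and 10 in Kif13b-/-, and to cluster 18 at 7 to 9 in WT and 4 to 9 in Kif13b-/-. In smooth muscle-like barcodes no gene was lower in Kif13b-/- by 1.5-fold under any setting, and 1 (Des) was higher with cluster 13 alone and 1 with cluster 14 alone; log2 ratios ran from 0.22 to 0.79 for Des and from -0.46 to -0.15 for Mylk. In the Crabp2 class the number higher became 2 at Leiden resolution 2, 5 with barcodes classed by marker score and 1 when thinned to 1000 UMIs, and the number lower 0 at resolution 2, 2 at no more than 10% mitochondrial UMIs, 3 when thinned to 1000 UMIs and 3 by mean per-cell CPM. In the chondrocyte-like class 2 were lower with genes scaled within each library, 0 by marker score and 5 when thinned to 1000 UMIs. By marker score the log2 ratio of Tagln in the Crabp2 class reversed to 0.54 and that of Myl9 in the chondrocyte-like class to 0.22. In fibroblast-like barcodes the number lower became 0 at resolution 2, 0 without doublet removal, 0 by marker score, 0 by mean per-cell CPM, 0 in barcodes thinned to 5000 UMIs, 1 when thinned to 1000 UMIs and 3 with genes scaled within each library. The number higher there became 3 at resolution 2, 1 without doublet removal, 1 by marker score, 1 in barcodes of at least 5000 UMIs and 2 in those thinned to 5000. Their log2 ratios reversed to 0.19 for Acta2, 0.61 for Myl9 and 0.0353 for Mylk at resolution 2, to 0.00625 for Myl9 by marker score, and to 0.14 for Myl9 and 0.0862 for Mylk when thinned to 5000. In pericyte-like barcodes 0 were lower by marker score. In endothelial-like barcodes the number lower became 4 at resolution 2, 2 with genes scaled within each library, 2 without doublet removal, 2 at no more than 10% mitochondrial UMIs, 3 by marker score, 3 when thinned to 1000 UMIs, and 0 in barcodes of at least 1000 UMIs, of at least 5000 or thinned to 5000; the number higher became 0 when thinned to 1000 UMIs and 0 by mean per-cell CPM. In immune-like barcodes, genes at 10% or less of the smooth muscle-like level numbered 2 in Kif13b-/- by marker score, 0 in WT and 0 in Kif13b-/- when thinned to 1000 UMIs and likewise 0 and 0 by mean per-cell CPM, and 0 in WT with lymphocytes and neutrophils alone. Thinning to 1000 UMIs and per-cell means give shallow barcodes more weight by construction; for the other changes the cause was not tested. With the 10 genes among the variable genes no Crabp2 class was named, and marker scores give no cluster 18, so these had no value, nor had pericyte-like barcodes of at least 5000 UMIs, too few in Kif13b-/-. No paired analysis was possible because each genotype had 1 library.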
